A study of Mus musculus with 5 samples.

Results

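The regions described here lie around 3 genes of the E protein family and its inhibitors in mouse double positive (DP) thymocytes, the immature T cells of the thymus that carry both CD4 and CD8. They are all regions of the DNaseI, HEB and TCF1 lists that overlap mm9 chr9:71650001-72050000 around Tcf12, chr10:79850001-79930000 around Tcf3, or chr4:135650001-135750000 around Id3. These windows of 400, 80 and 100 kb held 72 of the 56796 regions of the 3 lists, of which 64 were DNaseI, 3 HEB and 5 TCF1 regions. All samples came from DP thymocytes of C57/BL6 mice aged 4 to 6 weeks, and the labels name no genetic change or treatment and do not say whether animals were pooled. The DNaseI sample marks open chromatin, cut by DNase I in intact nuclei for 3 min at 37 °C, and the HEB and TCF1 samples are chromatin immunoprecipitations with antibodies to those factors. Each assay had 1 sample, so no value here has a replicate error and no difference was tested. Intervals cover counting error only. The H3K9me3 and H3K27ac samples were not analysed here.

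E proteins are basic helix-loop-helix factors that bind DNA as dimers at E-box sequences. Tcf12 encodes HEB, the factor immunoprecipitated here, and Tcf3 encodes the E2A proteins E12 and E47, which pair with HEB in developing thymocytes. Id3 has the helix-loop-helix that pairs with E proteins but no basic region, so its dimers with them do not bind DNA. Id3 is induced by signals from the T cell receptor and its precursor form, and the balance of E and Id proteins is known to govern passage through the DP stage. TCF1, encoded by Tcf7, is an HMG-box factor of the TCF/LEF family and is known to act beside HEB in these cells. The windows were compared for HEB regions around the gene that encodes it, around a partner gene and around the gene of an inhibitor.

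The promoters of the 3 genes are shown because transcription of these genes starts from them. They are the 250 bases before the transcript start in RefSeq, build GRCm38.p6, with E-box words (CANNTG, the same word on both strands) in capitals. That build is not the mm9 of the region lists, so these positions cannot be set beside the regions, and whether a region covers a promoter was not read.
Tcf12, first promoter of the table (chr9:72111820-72112069, minus strand): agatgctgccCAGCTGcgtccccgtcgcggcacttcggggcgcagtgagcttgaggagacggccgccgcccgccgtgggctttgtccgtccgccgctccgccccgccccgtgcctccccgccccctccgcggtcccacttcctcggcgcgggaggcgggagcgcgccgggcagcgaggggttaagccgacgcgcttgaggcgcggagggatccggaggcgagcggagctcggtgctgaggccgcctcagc
Tcf3 (chr10:80433636-80433885, minus strand): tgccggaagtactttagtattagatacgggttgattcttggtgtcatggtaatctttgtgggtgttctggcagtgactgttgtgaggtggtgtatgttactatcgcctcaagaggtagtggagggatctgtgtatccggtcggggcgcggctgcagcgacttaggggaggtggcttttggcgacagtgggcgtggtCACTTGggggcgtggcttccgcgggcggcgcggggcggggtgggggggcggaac
Id3 (chr4:136143572-136143821, plus strand): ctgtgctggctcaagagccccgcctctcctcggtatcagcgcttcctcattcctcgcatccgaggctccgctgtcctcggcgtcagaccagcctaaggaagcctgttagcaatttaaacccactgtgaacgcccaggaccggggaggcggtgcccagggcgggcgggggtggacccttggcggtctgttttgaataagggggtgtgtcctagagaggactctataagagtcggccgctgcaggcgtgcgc
The Tcf12 promoter held 1 E-box, CAGCTG, 240 bases before the start, and the Tcf3 promoter held 1, CACTTG, 54 bases before it. The Id3 promoter had no CANNTG word in these bases. Of all 32817 promoters of the same length in the table, 66.2% held a CANNTG word and 13.0% held CAGCTG. The TCF/LEF word CTTTGT, searched on both strands, occurred once in the Tcf12 and once in the Tcf3 promoter and in 16.5% of all promoters. CTTTGA, searched in the same way, was in neither of them nor in that of Id3, and was in 13.8% of all. The table lists another 2 starts for Tcf12, with 1 and 0 E-boxes before them.

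The gene table, of the same other build, places Tcf12 on chromosome 9, Tcf3 on chromosome 10 and Id3 on chromosome 4, the chromosomes of the windows. It lists Cgnl1 and Zfp280d as the protein-coding neighbours of Tcf12, Uqcr11 and Onecut3 as those of Tcf3, and Rpl11 and E2f2 as those of Id3. Regions of a window can therefore lie in or near a neighbour, and no region was assigned to a gene, exon or intron. The lists carry no gene names, so the cell type was not checked against marker genes.

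Open chromatin was densest in the Id3 window, less dense in the Tcf3 window and least dense in the Tcf12 window. These windows differ in width, at 100, 80 and 400 kb, which limits the ranking. Widened by 50 kb on both sides, they had 14.4, 7.09 and 1.81 times the density of the whole list. The Id3 window held 35 DNaseI regions, or 350 per Mb (95% Poisson interval 244 to 487), against 18.8 per Mb over the chromosomes. The Tcf3 window held 13, or 162 per Mb (86.5 to 278), and the Tcf12 window 16, or 40.0 per Mb (22.9 to 65.0). These densities were 18.6 times (13.0 to 25.9), 8.65 times (4.60 to 14.8) and 2.13 times (1.22 to 3.46) that of the whole list. The Tcf12 ratio turned on weak regions, and with only scores above the median of the list it was 0.823. That value rests on 3 regions and no interval was computed for it, so whether it lies below the whole list was not tested. The intervals of the Id3 and Tcf3 windows overlapped each other, and neither overlapped that of Tcf12. This tests no difference, because the intervals take regions as independent while DNaseI regions lie clustered. Windows of 400 kb on a fixed grid held a median of 1 and a mean of 7.33 DNaseI regions. Few windows held as many open regions as that of Id3. Of all 26376 windows of 100 kb on a fixed grid, 0.0455% held at least 35 DNaseI regions, while 2.01% of 80 kb windows held at least 13 and 16.9% of 400 kb windows held at least 16. DNaseI regions covered 23.8% of the bases of the Id3 window, 8.67% of the Tcf3 window and 0.950% of the Tcf12 window, against 0.845% of the chromosome span.

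**Figure D1:**
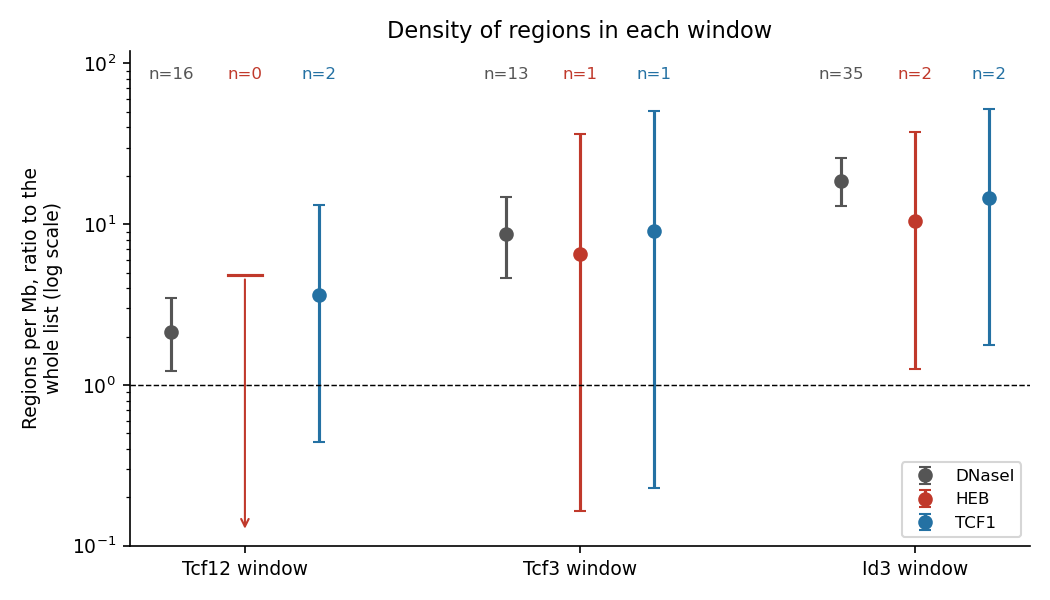
Regions per Mb in each window as a ratio to the same list over all chromosomes (log axis; points are the ratio, bars the 95% Poisson interval, n the number of regions, and the dashed line equal density). The arrow for HEB at Tcf12 starts at the upper limit of 4.81 that its count of 0 leaves, and DNaseI is highest at Id3, at 18.6.

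HEB and TCF1 regions were few in number in every window. The Tcf12 window held 0 HEB and 2 TCF1 regions, the Tcf3 window 1 of each, and the Id3 window 2 of each. With such counts the intervals of the density ratios to the whole list were wide. For HEB the ratio was 6.52 (0.165 to 36.3) at Tcf3 and 10.4 (1.26 to 37.7) at Id3. For TCF1 it was 3.62 (0.439 to 13.1) at Tcf12, 9.06 (0.229 to 50.5) at Tcf3 and 14.5 (1.76 to 52.4) at Id3. A count of 0 leaves HEB at Tcf12 with a ratio of up to 4.81. The number of HEB regions at Tcf12 was common, since 56.4% of 400 kb windows held none. At least 2 HEB regions were found in 2.76% of 100 kb windows and at least 2 TCF1 regions in 2.45%. At least 1 HEB region was found in 12.2% of 80 kb windows and at least 1 TCF1 region in 8.31%.

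**Figure D2:**
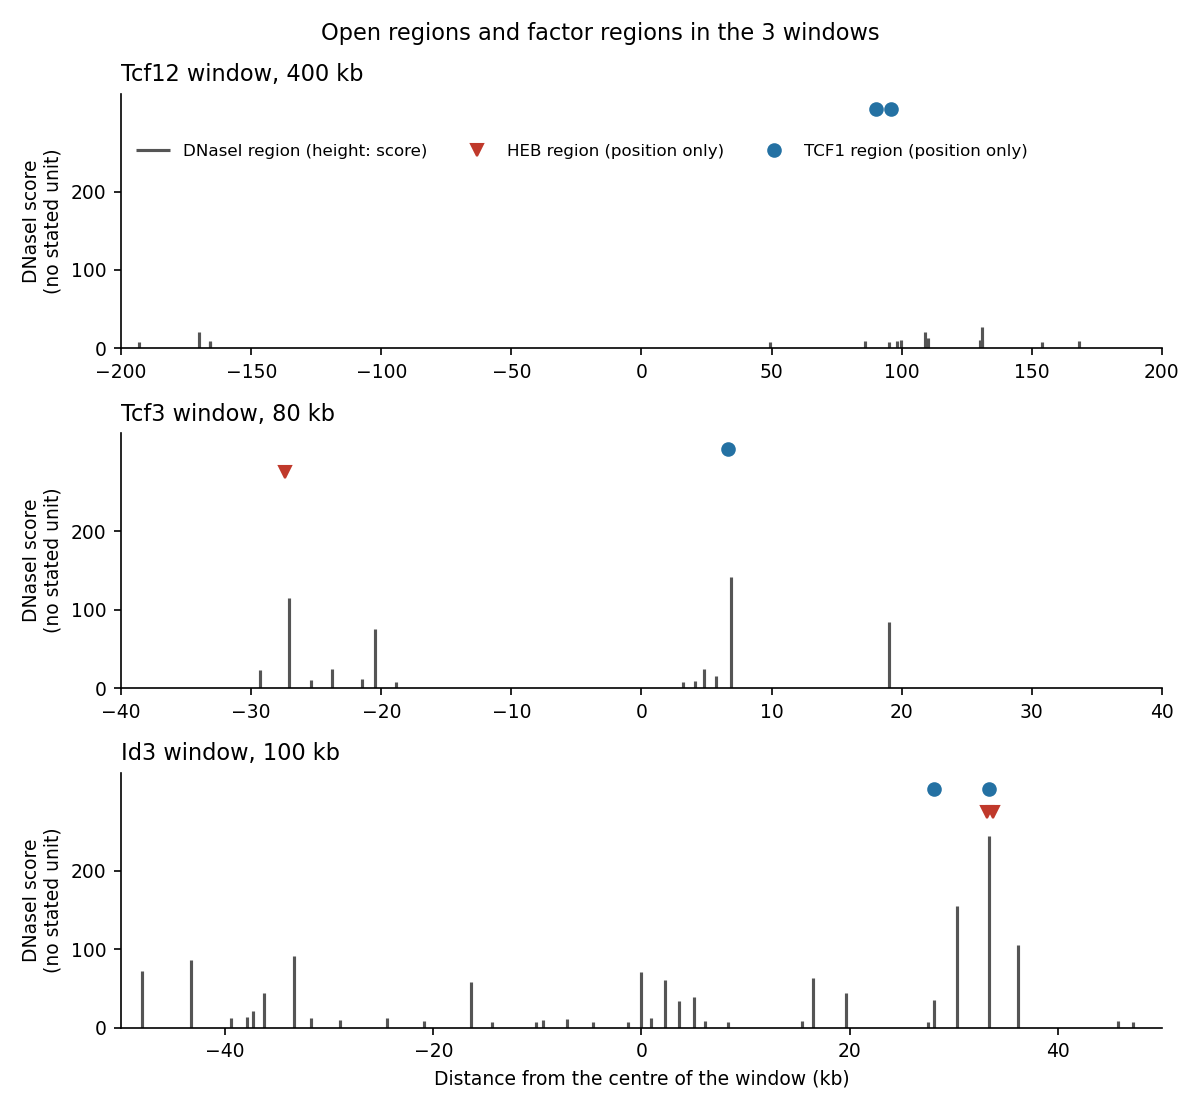
Position of every region in the 3 windows, in kb from the centre of the window, with the score of each DNaseI region as the height of its line on the same scale in all panels. Triangles (HEB) and circles (TCF1) show position only. The Tcf12 window has no triangle and no line above 27, and the Id3 window has its tallest line, at 245, under both triangles and 1 circle.

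Around Tcf12, the gene of HEB itself, no HEB region was listed and no open region scored above 27. The score is a whole number that the authors gave each region, with no stated unit, and it is compared here only within its own list. The 16 DNaseI regions of this window scored 8 to 27 with a median of 9.5, against a median of 16 in the whole list, whose lowest score is 8. Only 3 of the 16 scored above 16, whereas 48.5% of all DNaseI regions did. The highest was chr9:71981322-71981572, with a score of 27 and 251 bp. The next were chr9:71679750-71680128 and chr9:71958408-71958734, each with a score of 21. Most were also narrow, with 10 of 16 at exactly 201 bp, a width found in 26.4% of all DNaseI regions, and the widest was 379 bp. Score followed width in the DNaseI list (Spearman's rho of 0.940 over its regions, no independent replicates), and ranked among regions of the same width decile the Tcf12 scores were ordinary. Their median percentile rank was 20.4 in the whole list and 47.9 within the width decile. Regions of exactly 201 bp were kept in 1 width class, which therefore held at least 26.4% of the list and was larger than a decile. At Tcf12 the open regions were thus low for the list but not for their width.

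Few other windows held this many open regions with none above a score of 27. Of the 1116 grid windows of 400 kb with at least 16 DNaseI regions, 0.179% (2 windows) had a highest score of 27 or less, and the median highest score was 106. Only 1 of these windows (0.0896%) had a median score as low as 9.5. Among the 75 windows with exactly 16 DNaseI regions, a comparison chosen after seeing the data, 1.33% (1 window) had a highest score of 27 or less. The median highest score of those 75 windows was 78. The limits of 27 and 9.5 were read from the Tcf12 window itself, so all these shares are a description and no test. Of the 1116 windows, 20.9% held no HEB region.

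The open regions of the Tcf12 window lay in separate groups. From chr9:71684535 to chr9:71899290, a distance of 215 kb, no DNaseI region was listed, and 3.47% of all gaps between neighbouring DNaseI regions were as long. On the left of this gap lay 4 regions, and on the right 12. The 100 kb of chr9:71750001-71850000 therefore held none, while chr9:71950001-72050000 held 7, among them the one with a score of 27.

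Both TCF1 regions of the Tcf12 window lay outside open regions. They were chr9:71940083-71940265, with a score of 8, and chr9:71945947-71946129, with a score of 11, and their centres were 5864 bp apart. A score of 11 is the median of the TCF1 list, and 0.0282% of TCF1 regions scored below 8. The first was 3870 bp and the second 751 bp from the nearest DNaseI region. The latter, chr9:71944995-71945195, had the lowest score of the list, 8. Over the whole list 15.1% of TCF1 regions lay outside DNaseI regions, and of those 31.3% had a DNaseI region within 1 kb. The HEB region nearest to the window was chr9:72238181-72238381, with a score of 27, at 188 kb beyond the right edge. It overlapped a TCF1 region with a score of 19 and lay in a DNaseI region.

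Around Tcf3, which encodes E12 and E47, 1 HEB and 1 TCF1 region lay in separate open regions that were the strongest of the window. The 13 DNaseI regions scored 8 to 142 with a median of 23, and 7 of them scored above the median of the list. The highest was chr10:79896531-79897234, with a score of 142 and 704 bp. It carried the TCF1 region chr10:79896601-79896783, with a score of 11, equal to the median of its list. Only 1.13% of DNaseI regions scored as high, and within its width decile this region stood at a percentile rank of 99.9. The next was chr10:79862357-79863345, with a score of 115 and 989 bp. It carried the HEB region chr10:79862513-79862713, whose score of 15 was reached by 26.9% of HEB regions. The centres of the HEB and TCF1 regions were 34079 bp apart, so each factor lay alone in its open region. Across the whole DNaseI list, 3.43% of regions carried HEB and 6.10% carried TCF1. Among DNaseI regions with a score of 50 or more, 32.7% carried at least 1 factor.

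Of the 4 open regions around Tcf3 with a score of 50 or more, 2 carried neither factor, against 67.3% of all such DNaseI regions. They were chr10:79908455-79909540, with a score of 84, and chr10:79868908-79870152, with a score of 76. The remaining 9 regions scored 25 or less. Open regions fell into a group at the left of the window and a group in the part around chr10:79890001-79910000, with 21.9 kb between them that held no DNaseI region. The right end of the window, from chr10:79910001, held none.

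**Figure D3:**
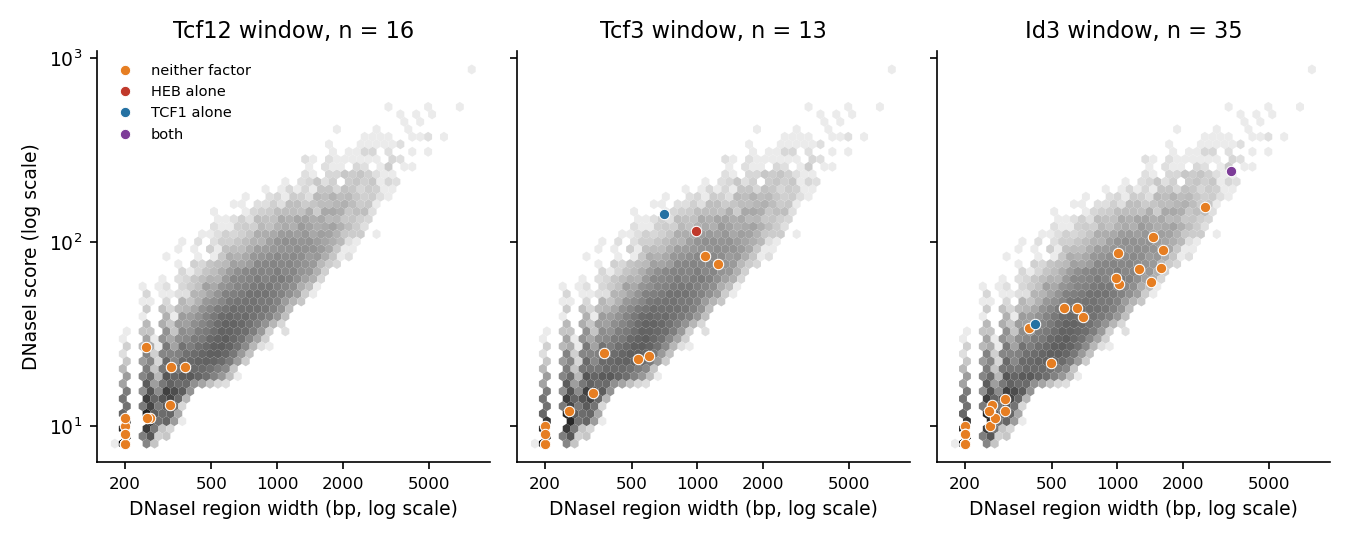
Score against width (bp) of the DNaseI regions of each window, both on log axes, coloured by the factor regions they carry, over the density of all 48320 DNaseI regions in grey. The Tcf12 regions reach no further than a score of 27 and a width of 379 bp, the 142-scoring Tcf3 region with TCF1 sits at the upper edge of the grey cloud, and the Id3 region with both factors is the widest shown, at 3348 bp.

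Around Id3, the gene of the E protein inhibitor, 3 of the 4 factor regions lay in a single wide open region. This region, chr4:135731770-135735117, had a score of 245 and a width of 3348 bp. Only 0.159% of DNaseI regions scored as high and 0.0642% were as wide. It carried the HEB regions chr4:135733056-135733256, with a score of 33, and chr4:135733697-135733897, with a score of 38. Both HEB scores were high for their list, in which 3.14% of regions reached 33 and 2.07% reached 38. It also carried the TCF1 region chr4:135733347-135733529, with a score of 9, which 87.5% of TCF1 regions reached. The HEB regions of the Id3 window were thus near the top of their list, whereas the TCF1 region between them stood at a percentile rank of 21.9 in its own. These HEB regions lay 33.2 and 33.8 kb to the right of the window centre. They were not assigned to Id3 or to a neighbour.

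The 3 factor regions were arranged around the middle of this open region without overlapping each other. The TCF1 region lay between the HEB regions, with its centre 6 bp from the centre of the open region. It was 282 bp from the centre of the left HEB region and 359 bp from that of the right one, with 90 and 167 bp between their ends. The HEB centres were 641 bp apart, and 3.02% of all HEB regions had another within 1 kb. The order of the 3 regions was not counted in other open regions. At least 2 HEB regions and at least 1 TCF1 region, in any order, were found in 0.0538% of DNaseI regions (26 of 48320). That pattern was read from this region, so its share is a description and no test. Of all DNaseI regions 91.8% carried neither factor. Both factors were found in 1.28% (619 regions), and in 13.7% of those no HEB region overlapped a TCF1 region, as here. Open regions with both factors had a median score of 91 and a median width of 1053 bp, and 6.30% of them scored at least 245.

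**Figure D4:**
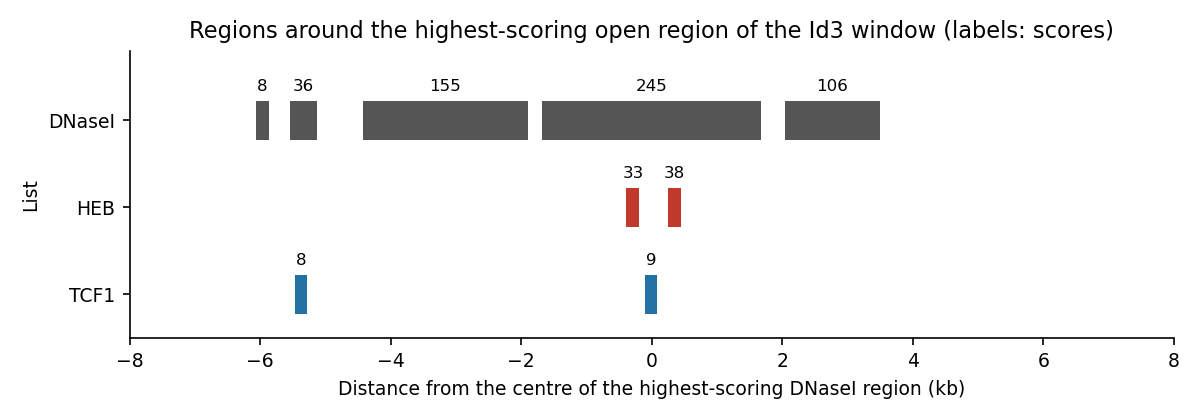
Regions of each list within 8 kb of the centre of the highest-scoring DNaseI region around Id3, drawn to scale in kb, with their scores above the bars. The HEB regions (33 and 38) flank the TCF1 region (9) at the middle of the open region that scores 245.

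Wide open regions flanked it on both sides. To the left lay chr4:135729016-135731541, with a score of 155, and to the right chr4:135735481-135736945, with a score of 106, and neither carried a factor region. Joined over gaps of up to 500 bp, the 3 regions formed a stretch of 7930 bp that was open over 92.5% of its length. Of 42535 such stretches in the DNaseI list, 0.0118% (5 stretches) were as long. The other TCF1 region of the window, chr4:135727984-135728166, had a score of 8. It lay 5081 bp, centre to centre, from the nearest HEB region, in the separate open region chr4:135727897-135728314, which had a score of 36.

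The other 33 open regions around Id3 ranged from weak to strong and carried no factor region. All 35 together scored 8 to 245 with a median of 13, against 16 in the whole list. The 95% interval of that median, 10.0 to 44.0, includes 16. In that window 10 regions scored 50 or more, yet 13 scored 10 or less. Of the 10 strong regions 1 carried a factor region, or 10.0% (95% Wilson interval 1.79 to 40.4%), against 32.7% of all DNaseI regions with such scores. A width of 1000 bp or more was reached by 9 of the 35, against 6.63% of all DNaseI regions. Of these 9, 1 carried a factor region, or 11.1% (1.99 to 43.5%), against 36.2% of all regions as wide. Both intervals include the value of the whole list, so a lower share was not detectable with these counts. Strong regions without a factor were spread over the window, such as chr4:135665776-135667403, with a score of 91, and chr4:135656243-135657250, with a score of 87. Another wide stretch, chr4:135699369-135703757, joined 4 regions over 4389 bp, and 0.158% of stretches were as long.

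**Figure D5:**
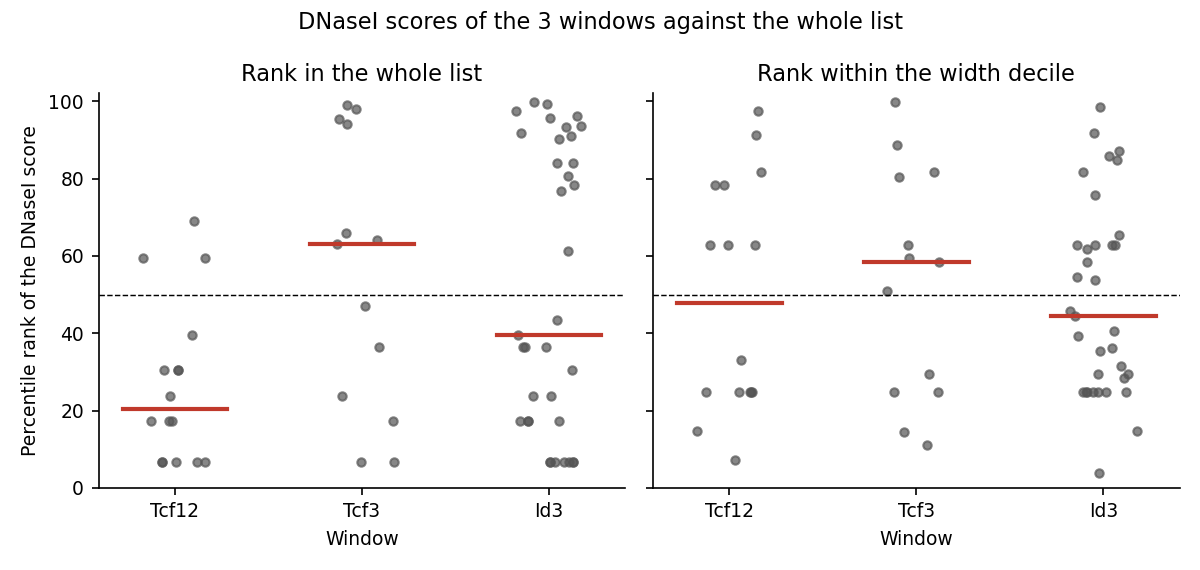
Percentile rank of each DNaseI score in the whole list (left) and among regions of the same width decile (right), by window. Points are regions, spread sideways at random, red bars are medians, and the dashed line is the middle of the list. The Tcf12 median moves from 20.4 to 47.9, the Tcf3 median from 63.1 to 58.5, and the Id3 median from 39.5 to 44.4.

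Over the 3 windows, 60 of the 64 DNaseI regions carried neither factor, as did 91.8% of the whole list, and 4 carried at least 1, as did 8.25% of it. HEB was on 2, TCF1 on 3 and both on 1. All 3 HEB regions lay in DNaseI regions (95% Wilson interval 43.9 to 100%), against 34.5% of the HEB list. Of the 5 TCF1 regions 3 did (60.0%, 23.1 to 88.2%), against 84.9% of the TCF1 list. The HEB regions lay in only 2 open regions, so they are not independent, and the interval for 2 of 2 is 34.2 to 100%. That interval and the TCF1 interval include the values of their lists. No HEB region overlapped a TCF1 region in these windows, against 11.7% of the HEB list. All 3 HEB regions scored above the median of their list, as 41.6% of it did, and none of the 5 TCF1 regions did, against 39.5% of theirs. The 4 open regions with a factor scored 36, 115, 142 and 245, and all lay above the median of the list, as 26 of the 64 did (40.6%, against 48.5% of all). At the lowest score of 8 were 14 of the 64 (21.9%, against 13.2% of all).

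The window edges left out some regions close by. At 4.8 kb to the left of the Id3 window, the HEB region chr4:135645045-135645245, with a score of 26, overlapped the TCF1 region chr4:135644987-135645169, with a score of 9, and both lay in a DNaseI region. The nearest DNaseI regions outside the Id3 window scored 12 and 10, and those just inside scored 72 and 8. At Tcf12 the first DNaseI region beyond the right edge, at 3.8 kb, scored 13, and the first beyond the left edge lay 127 kb away and scored 10. At Tcf3 the first outside scored 12 on the left, at 2.0 kb, and 8 on the right, at 8.4 kb. The nearest HEB region outside the Tcf3 window lay 151 kb beyond its right edge, with a score of 12, and the nearest TCF1 region 138 kb beyond its left edge, with a score of 10.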

How the data were processed

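The 3 lists deposited by the authors hold positions and 1 score for every region. The score deposited by the authors is a whole number with no stated unit. Per the labels' protocols, the DNaseI, HEB and TCF1 libraries were sequenced on a SOLiD instrument. The submitters' processing notes name HOMER 6.1 and build mm9, with no role. The sources used here do not give the aligner, calling threshold or control, and the depth is unknown, so a region missing from a list may be unbound or below the threshold.

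Starts were read as counted from 0 and are printed counted from 1. Regions belonged to a window when they overlapped it, and lists overlapped at 1 bp or more. A chromosome counted from its first listed region to its last, 2.57 Gb over all chromosomes. Grids of windows as wide as each locus ran from position 1 of every chromosome, with gaps and unmappable sequence unmasked. Intervals are 95% exact Poisson for densities, Wilson for shares and binomial order statistics for medians. All HEB and TCF1 regions, open regions that meet them and the 3 strongest DNaseI regions per window were to be named, and other regions were named after their values were seen. Members and comparisons were chosen with earlier results of these data known. Overlap counting was tested on simulated lists. Analyses used Python 3.11.15, numpy 2.4.6, pandas 2.3.3, scipy 1.17.1 and matplotlib 3.10.9.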

Additional observations from a re-analysis of the deposited data

How the results depend on the processing

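Each assay had 1 sample, so stability over animals is unknown. Of 93 alternative values over 34 results, 82 stayed within the 95% interval of the reported value and 11 did not. These intervals are Poisson for densities, Wilson for shares and binomial order-statistic intervals for medians (6.59 to 39.5 for the Tcf12 rank), and counts of regions were allowed 1.5 times. Most of the 11 came from keeping only scores above each list's median, which removes regions by construction. It lowered the Tcf12 density ratio of DNaseI from 2.13 to 0.823, and it left 0 TCF1 regions in all 3 windows, 0 open regions with TCF1 or with both factors, and 24 open regions with neither. The TCF1 results therefore rest on regions at or below the median of that list. Windows widened by 50 kb on both sides held 6 open regions with TCF1 and 2 with both factors, in place of 3 and 1. Ranking within the width decile moved the Tcf12 median rank from 20.4 to 47.9. The share of windows as open as that of Tcf12 with a highest score of 27 or less was 1.33% with exactly as many regions, in place of 0.179%, and the cause was not tested. No paired analysis was possible because each assay had 1 sample.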

Other observations

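The numbers of factor regions around Id3 and Tcf3 lay within the range of windows as rich in open regions. The 12 grid windows of 100 kb with at least 35 DNaseI regions held 1 to 7 HEB regions (median 3) and 1 to 12 TCF1 regions (median 2), beside the 2 of each around Id3. None of these 12 had a median DNaseI score as low as the 13 around Id3, and their median highest score was 186, beside 245 there. The 662 windows of 80 kb with at least 13 DNaseI regions had a median of 1 HEB and 1 TCF1 region, the numbers found around Tcf3, and ranged from 0 to 9 for HEB and from 0 to 12 for TCF1. These values describe the lists and were not tested.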
